A study of Mus musculus with 8 samples.

Results

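The genes described here make, store, recapture and break down the monoamines dopamine, noradrenaline and serotonin. They are Th, Tph2, Ddc, Dbh, Gch1, Slc18a2, Slc6a2, Slc6a4, Maoa and Maob, and all 10 were measured among 20352 genes. Th and Tph2 were put on the list because their gene values had already differed between the groups in these same arrays. Their differences are therefore given as a description, without a test. The other 8 were added as the remaining genes of the pathway, and the question was whether Th stood apart alone or together with them.

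RNA was taken from the cerebellum of mice aged 28 days, 4 with the genotype label Cic-L-null and 4 labelled wild-type, with 1 Affymetrix Mouse Gene 1.0 ST array per animal. All 8 animals carried the strain label of a mixed Swiss Webster (CD-1) background. Cic encodes Capicua, a DNA-binding repressor that forms a complex with ataxin-1. The tissue was the whole cerebellum, so fewer cells of a type and less RNA per cell cannot be told apart in any value below. The labels give no sex and no time of day, and they name a Trizol and RNeasy extraction for wild-type replicate 1 alone.

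Th encodes tyrosine hydroxylase, the rate-limiting enzyme of catecholamine synthesis, and Tph2 encodes the tryptophan hydroxylase of serotonin neurons. Both enzymes need tetrahydrobiopterin, and Gch1 encodes the enzyme that starts its synthesis. Ddc encodes the decarboxylase that yields dopamine and serotonin, and Dbh the enzyme that turns dopamine into noradrenaline. The cell bodies of noradrenaline and serotonin neurons lie in the brainstem and send only axons into the cerebellum. In mice, some Purkinje cells, the output neurons of the cerebellar cortex, contain Th RNA without being catecholamine neurons.

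Promoter windows are shown for the 3 genes whose arrays did not overlap between the groups, Th, Tph2 and Dbh, and for Slc18a2, which shares a motif with Th. Each window runs from 250 bases before to 50 bases after the transcript start in RefSeq (GRCm38.p6), read 5′ to 3′ along the gene. Capitals mark the cyclic AMP response element TGACGTCA, the only searched motif that was found.
Th, chr7:142899946-142900245, minus strand: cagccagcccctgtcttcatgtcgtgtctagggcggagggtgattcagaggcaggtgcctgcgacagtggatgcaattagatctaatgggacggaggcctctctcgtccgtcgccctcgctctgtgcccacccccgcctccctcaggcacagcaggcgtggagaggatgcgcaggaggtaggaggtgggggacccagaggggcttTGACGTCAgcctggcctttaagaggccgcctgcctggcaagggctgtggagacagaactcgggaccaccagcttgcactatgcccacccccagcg
Tph2, chr10:115184973-115185272, minus strand: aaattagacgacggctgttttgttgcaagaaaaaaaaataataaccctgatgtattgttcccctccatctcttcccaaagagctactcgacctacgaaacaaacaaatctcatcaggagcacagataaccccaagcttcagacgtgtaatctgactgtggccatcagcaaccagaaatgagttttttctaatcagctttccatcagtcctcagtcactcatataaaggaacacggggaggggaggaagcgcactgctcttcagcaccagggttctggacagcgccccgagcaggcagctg
Dbh, chr2:27165257-27165556, plus strand: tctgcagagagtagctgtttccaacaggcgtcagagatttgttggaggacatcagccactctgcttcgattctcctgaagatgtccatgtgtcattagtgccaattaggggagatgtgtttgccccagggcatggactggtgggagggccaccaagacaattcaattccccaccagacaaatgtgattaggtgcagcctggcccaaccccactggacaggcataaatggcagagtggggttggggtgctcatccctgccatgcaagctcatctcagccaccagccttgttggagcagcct
Slc18a2, chr19:59260628-59260927, plus strand: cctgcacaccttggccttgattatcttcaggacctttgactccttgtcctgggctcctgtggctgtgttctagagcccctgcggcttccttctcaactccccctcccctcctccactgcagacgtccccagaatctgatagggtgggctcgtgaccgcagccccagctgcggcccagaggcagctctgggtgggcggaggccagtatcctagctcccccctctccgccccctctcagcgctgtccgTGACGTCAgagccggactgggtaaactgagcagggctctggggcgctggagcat

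RefSeq windows matched 8 of the 10 genes, with 9 windows in all because Ddc has a pair of starts. The Capicua octamer was searched on both strands as TGAATGAA, TGAATGGA, TCAATGAA and TCAATGGA. It was found in 0 of the 9 windows, and in 3.84% of all 32851 windows of the same length. The element TGACGTCA, which reads the same on both strands, was in 2 of the 9 windows and in 1.79% of all. Its first base lay at position -45 in Th and at position -4 in Slc18a2, counted from the transcript start. These matches describe letters within 300 bases only and say nothing about binding.

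Cic itself, the altered gene, averaged 7.54 ± 0.061 in Cic-L-null and 8.78 ± 0.28 in wild-type cerebellum (log2 gene value, SD, n = 4 each). The difference was -1.25 (SE 0.12), with limma's adjusted p = 0.00818. Gene values correlated between 0.991 and 0.995 across pairs of arrays. A gene value is the mean log2 RMA value of the probe sets carrying that symbol alone. Genes past an adjusted p of 0.05 over all genes with limma are termed called, and they numbered 28 (0.138%). A gene was termed dim where its mean over the 8 arrays lay at or below 6.21, the 95th percentile of 985 olfactory receptor genes.

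Th, chosen for its difference, was higher in the Cic-L-null mice in its gene value and in the mean of each of its probe sets. Its gene value was 7.25, 7.60, 7.26 and 7.35 in Cic-L-null replicates 1 to 4, against 6.73, 6.78, 7.08 and 6.55 in wild-type replicates 1 to 4. Every Cic-L-null array lay above every wild-type array, with wild-type replicate 3 the nearest to them. The means were 7.37 ± 0.16 in Cic-L-null and 6.79 ± 0.22 in wild-type (SD, n = 4 each), a difference of 0.58 (SE 0.11) or 1.49-fold.

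All 13 probe sets of Th had a higher mean in Cic-L-null than in wild-type mice, by 0.16 at the least (probe set 10569380) and by 1.37 at the most (probe set 10569375). Their median difference was 0.46. The lowest, 0.16, had an SE of 0.29. In 3 of the 13 the groups did not overlap, against 2.39% of all probe sets with Cic-L-null higher, a share from which nothing is read because this contrast chose the gene. Probe set 10569374 read 8.81, 9.15, 8.92 and 8.95 in Cic-L-null replicates 1 to 4, against 8.12, 8.58, 8.10 and 8.18 in wild-type. It had the smallest error of the 13, with a difference of 0.71 (SE 0.13).

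Probe set 10569375, which had the largest difference, read 7.82, 8.46, 7.90 and 8.19 in Cic-L-null replicates 1 to 4, against 7.23, 7.08, 6.82 and 5.76 in wild-type. Its low end was wild-type replicate 4, the array with the lowest Th gene value as well. Without this probe set the Th difference was 0.51, and the groups still did not overlap. Of the 13 probe sets, 11 lay above the dim limit for probe sets of 6.31, and these averaged a difference of 0.51. With the median of the probe sets in place of their mean, the Th difference was 0.30 and the groups overlapped.

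Tph2 was also higher in every Cic-L-null array, but at a level below the dim limit. Its gene value was 5.35, 5.71, 5.34 and 5.57 in Cic-L-null replicates 1 to 4, against 5.25, 4.998, 5.25 and 5.13 in wild-type replicates 1 to 4. The gap between the groups was 0.094, from Cic-L-null replicate 3 to the highest wild-type arrays, replicates 1 and 3. The means were 5.49 ± 0.18 in Cic-L-null and 5.16 ± 0.12 in wild-type (SD, n = 4 each), a difference of 0.34 (SE 0.096) or 1.26-fold. Both means lay below the dim limit of 6.21.

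Of the 12 Tph2 probe sets, 11 differed by more than 0 and 1, probe set 10372445, by -0.072. The groups did not overlap in probe set 10372454 alone, at 5.85, 6.08, 6.08 and 6.32 in Cic-L-null replicates 1 to 4, against 5.69, 5.83, 5.37 and 5.71 in wild-type. That probe set, with a mean of 5.87, lay below the dim limit for probe sets. Over all probe sets, 2.39% did not overlap with Cic-L-null higher. Nothing is read from the count for Tph2, because this contrast chose the gene. Only 4 of the 12 lay above the dim limit for probe sets, and these averaged a difference of 0.24.

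**Figure D1:**
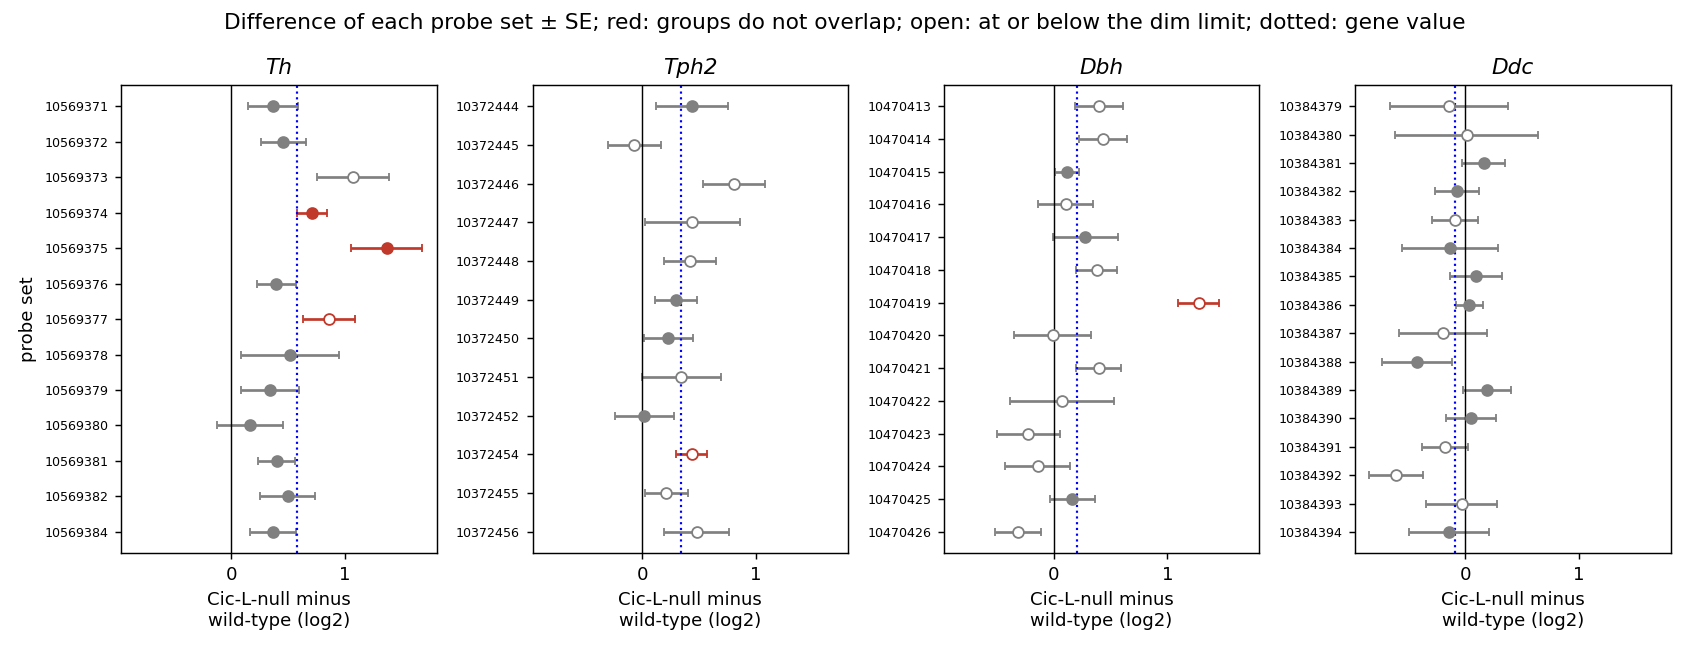
Difference of each probe set of Th, Tph2, Dbh and Ddc, Cic-L-null minus wild-type, in log2 units on the horizontal axis, with bars of 1 SE. Red points are probe sets whose groups do not overlap, open points lie at or below the dim limit, and the dotted line is the difference of the gene value. All 13 Th points lie right of 0, 1 of them by less than its SE, whereas those of Ddc fall on both sides.

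Among the enzymes that act after tyrosine and tryptophan hydroxylase, Dbh had the larger difference. Its gene value was 5.85, 5.73, 5.78 and 5.71 in Cic-L-null replicates 1 to 4, against 5.43, 5.55, 5.56 and 5.69 in wild-type. The groups did not overlap, but Cic-L-null replicate 4 and wild-type replicate 4 differed by only 0.020. The difference was 0.21 (SE 0.068), and Dbh was not called (adjusted p = 0.335 over all genes with limma). An exact two-sided permutation test of this single gene gave p = 0.0286, the smallest value that 4 against 4 arrays allow, and the same test of the 7 other genes not picked for their difference gave exact p values from 0.143 to 0.743. Both Dbh means, 5.77 in Cic-L-null and 5.56 in wild-type, were below the dim limit.

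The Dbh difference leaned on a single probe set. Probe set 10470419 read 4.84, 5.34, 4.77 and 4.84 in Cic-L-null replicates 1 to 4, against 3.85, 3.36, 3.51 and 3.97 in wild-type, a difference of 1.28 (SE 0.18) at a level below the dim limit for probe sets. Without it, a setting added after its values were seen, the gene difference was 0.13 and the groups overlapped. The 3 Dbh probe sets above the dim limit differed by 0.11 (SE 0.11, probe set 10470415), 0.28 (SE 0.29, probe set 10470417) and 0.16 (SE 0.20, probe set 10470425). With the median of the probe sets the Dbh difference was 0.017.

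Ddc, whose product is needed for dopamine and serotonin alike, was not higher. Its gene value was 6.34, 6.54, 6.28 and 6.56 in Cic-L-null replicates 1 to 4, against 6.70, 6.52, 6.43 and 6.44 in wild-type. The groups overlapped, with the highest array in wild-type and the lowest in Cic-L-null. The difference was -0.091 (SE 0.087, adjusted p = 0.832 with limma), and 10 of its 16 probe sets had a difference below 0. Ddc lay above the dim limit in both groups.

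Gch1, the gene of tetrahydrobiopterin synthesis, read 5.64, 5.56, 5.18 and 5.19 in Cic-L-null replicates 1 to 4, against 5.10, 5.50, 5.45 and 5.32 in wild-type. It scattered more within the groups than between them, differing by 0.049 (SE 0.12, limma adjusted p = 0.951), and it was dim.

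None of the transporter genes was called, and the arrays of each overlapped between the groups. Slc18a2 encodes the vesicular monoamine transporter, which loads all 3 amines into vesicles, and averaged 5.79 ± 0.11 in Cic-L-null and 5.76 ± 0.082 in wild-type (SD, n = 4 each). Slc6a2, the noradrenaline reuptake transporter gene, averaged 5.74 ± 0.072 in Cic-L-null and 5.80 ± 0.20 in wild-type (SD, n = 4 each). Slc6a4, the serotonin transporter gene, averaged 5.95 ± 0.045 in Cic-L-null and 6.05 ± 0.13 in wild-type (SD, n = 4 each). All 3 gene values were dim, and their differences were 0.030 (SE 0.072), -0.058 (SE 0.094) and -0.096 (SE 0.072). Each gene nevertheless had 5 probe sets above the dim limit for probe sets. These averaged a difference of 0.061 for Slc18a2, -0.15 for Slc6a2 and -0.13 for Slc6a4. The lowest adjusted p of the 3 was 0.762, for Slc6a4, with limma.

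Slc6a2 and Slc6a4, which mark noradrenaline and serotonin neurons, each ranged more widely in wild-type than in Cic-L-null mice. This was not particular to them. The SD was also larger in wild-type for Th, Dbh, Maoa, Maob and Cic, and larger in Cic-L-null for Tph2, Ddc, Gch1 and Slc18a2. Slc6a2 read 5.77, 5.76, 5.81 and 5.64 in Cic-L-null replicates 1 to 4, against 5.51, 5.89, 5.97 and 5.83 in wild-type. The lowest array of all was wild-type replicate 1, and without it the Slc6a2 difference was -0.15. Slc6a4 read 5.96, 5.96, 5.99 and 5.89 in Cic-L-null replicates 1 to 4, against 5.88, 6.01, 6.18 and 6.11 in wild-type, again with wild-type replicate 1 lowest.

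Maoa and Maob encode the mitochondrial monoamine oxidases that break the amines down, and both lay well above the dim limit. Maoa read 8.68, 8.66, 8.59 and 8.62 in Cic-L-null replicates 1 to 4, against 8.73, 8.48, 8.43 and 8.69 in wild-type, which differed by 0.058 (SE 0.076, limma adjusted p = 0.886). The Cic-L-null arrays lay inside the wild-type range. Maob read 8.03, 7.91, 7.90 and 7.83 in Cic-L-null replicates 1 to 4, against 8.15, 7.97, 8.04 and 7.91 in wild-type, which differed by -0.098 (SE 0.070, limma adjusted p = 0.749). Its groups overlapped as well.

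Both oxidase genes lie on the X chromosome, and arrays with Y-linked signal were not evenly split between the groups. Kdm5d, Eif2s3y and Uty, which are Y-linked, gave high signal in Cic-L-null replicates 1, 2 and 4 and in wild-type replicates 1 and 4. The wild-type spread of Maoa followed this division, with 8.71 in the 2 arrays with Y-linked signal and 8.45 in the 2 without. Within the arrays with Y-linked signal, 3 Cic-L-null against 2 wild-type, Maoa differed by -0.053 and Maob by -0.11. Within those without, 1 Cic-L-null against 2 wild-type, Maoa differed by 0.14 and Maob by -0.10.

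Th is not X-linked but lies on chromosome 7, as Cic does, with starts at 142892779 and 25267658 (GRCm38.p6). Whether strain alleles linked to Cic play a part in the Th difference was not tested. Th also gave unequal values by the division of Y-linked signal. Its difference was 0.76 within the arrays with Y-linked signal (7.40 in Cic-L-null, 6.64 in wild-type) and 0.33 within those without (7.26 in Cic-L-null, 6.93 in wild-type). Tph2 differed by 0.35 with Y-linked signal and by 0.22 without. Dbh differed by 0.20 with Y-linked signal and by 0.23 without. The arrays without Y-linked signal hold a single Cic-L-null array. With the Y-linked level as a covariate over all 8 arrays, the difference was 0.61 for Th, 0.30 for Tph2 and 0.21 for Dbh.

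**Figure D2:**
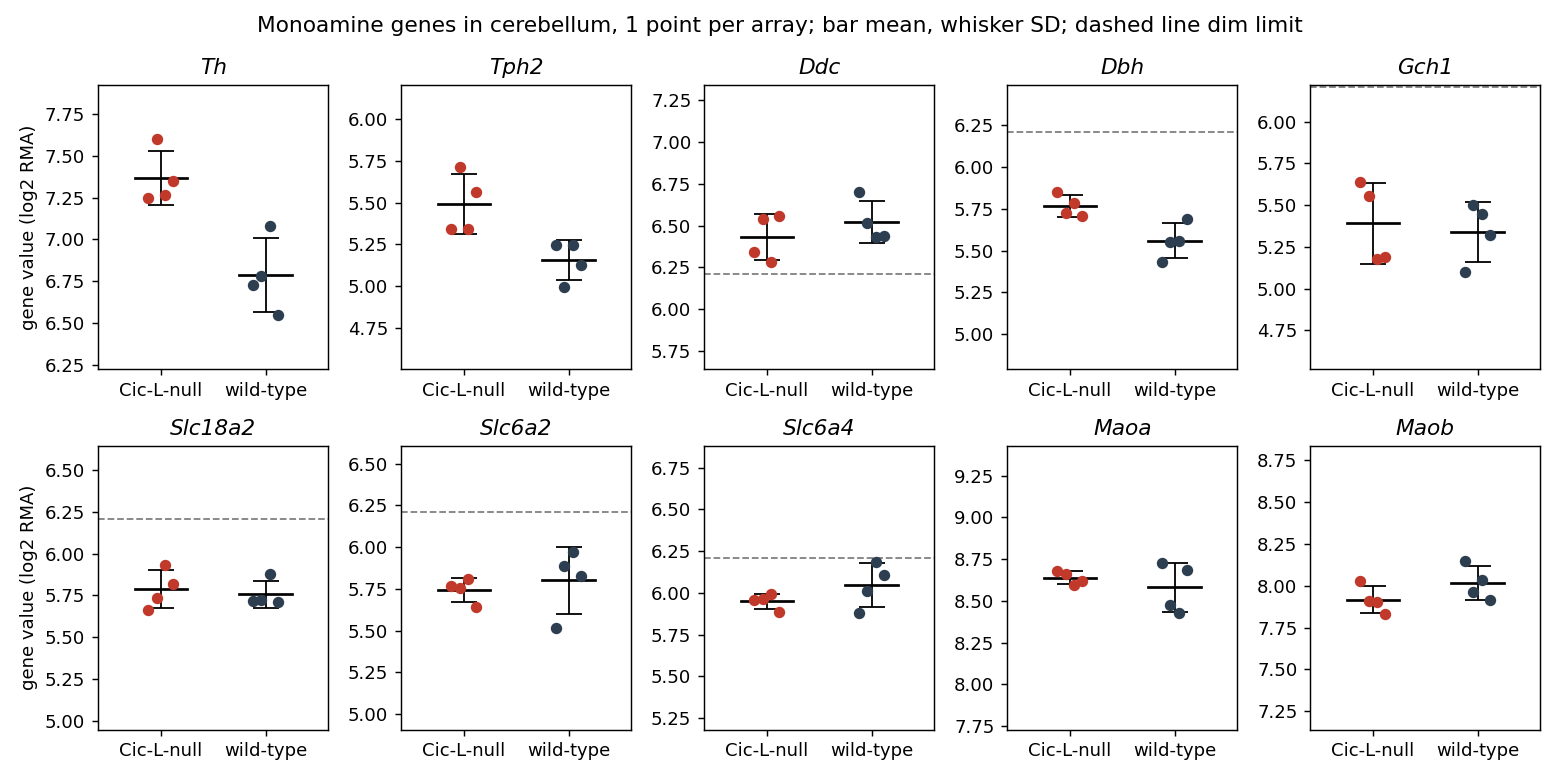
Gene value (log2 RMA) of the 10 monoamine genes on the vertical axis, 1 point per array, Cic-L-null left and wild-type right. Black bars give the mean and whiskers the SD of 4 arrays, the dashed grey line is the dim limit of 6.21 where it falls in the panel, and every panel spans the same number of log2 units. Th, Tph2 and Dbh are the panels without overlap between the groups, and the points of the other 7 overlap.

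Of the 8 genes not picked for their difference, 0 were called, where 0.138% of all genes were. An unadjusted p under 0.05 was reached by 9.26% of all genes, and among the 8 genes not picked for their difference by 1, Dbh. The groups did not overlap in 3 of the 10, all with Cic-L-null higher, against 3.02% of all genes in that direction. Since this contrast chose Th and Tph2, nothing is read from that count. Of the other 8, Dbh was the single one without overlap. The median difference was 0.040 over the 10 and -0.014 over the 8, beside -0.0071 over all genes.

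The size of these differences can be set against the spread of all genes, where the 2.5th to 97.5th percentiles ran from -0.23 to 0.24. Dbh and the other 7 genes not picked for their difference lay inside this range. Th and Tph2 lay outside it, which restates how they were chosen. Whether Th differed from the other monoamine genes in its response was not tested.

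Other genes of monoamine handling were examined as lists, which were chosen with earlier results of these data known. Of 12 measured enzyme and transporter genes beyond the 10, 0 were called, 7 had a difference above 0 and the median was 0.0055. Those 12 include Slc6a3, the dopamine transporter gene, at 6.37 in both groups with a difference of 0.0021 (SE 0.073). Tph1, the tryptophan hydroxylase of peripheral tissues, differed by -0.012 (SE 0.064), and Pnmt, which makes adrenaline, by -0.11 (SE 0.11). Both were dim. The smallest p values of that list belonged to Slc22a3, Hdc and Sult1a1. The transporter gene Slc22a3, which was dim, differed by -0.16 (SE 0.066). The histidine decarboxylase gene Hdc differed by 0.27 (SE 0.12), and the sulfotransferase gene Sult1a1 by 0.24 (SE 0.15). The Hdc value leaned on Cic-L-null replicate 3, at 8.13, where the other Cic-L-null arrays read 7.53 to 7.76 and wild-type arrays 7.43 to 7.55.

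Of the genes listed for tetrahydrobiopterin, the cofactor of both hydroxylases, 0 of 6 measured were called. All 6 differences were below 0, as 53% of all genes were, with a median of -0.094 and the nearest to 0 at -0.0029. With probe set medians 1 of the 6 was above 0, and Gch1, described above, differed by 0.049. The largest was Pcbd1, whose product regenerates the cofactor, at 7.43, 7.02, 7.28 and 7.02 in Cic-L-null replicates 1 to 4, against 7.41, 7.55, 7.28 and 7.55 in wild-type. It differed by -0.26 (SE 0.10, adjusted p = 0.454 with limma) and its groups overlapped. Qdpr, which recycles the cofactor, differed by -0.086 (SE 0.072), and Pts, of its synthesis, by -0.15 (SE 0.13).

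Of 21 measured monoamine receptor genes, 0 were called, 10 differed by more than 0 and 11 by less, with a median of -0.027. Adra2c, an alpha-2 adrenergic receptor gene, read 7.51, 7.66, 7.48 and 7.41 in Cic-L-null replicates 1 to 4, against 7.22, 7.39, 7.33 and 7.23 in wild-type. Its groups did not overlap, as in 3.02% of all genes with Cic-L-null higher, and its value rests on 1 probe set. Adra2c differed by 0.22 (SE 0.071, limma adjusted p = 0.329). The serotonin receptor gene Htr5b was the one receptor with all Cic-L-null arrays lower, as 2.91% of all genes were, at 6.34 to 6.51 in Cic-L-null and 6.55 to 6.72 in wild-type. It differed by -0.22 (SE 0.067, adjusted p = 0.305 with limma). Adra1b, which was dim, differed by -0.14 (SE 0.076).

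Transcription factor genes of monoamine neurons gave no called gene. Noradrenaline and serotonin cell bodies lie in the brainstem, so the signal of these genes in cerebellum cannot be assigned to such neurons. Of 13 measured, 12 lay above the dim limit, 0 were called and the median difference was -0.014. Phox2a, which defines noradrenaline neurons, differed by -0.014 (SE 0.15) and was dim. Nr4a2, of dopamine neurons, differed by 0.22 (SE 0.18), Lmx1a by 0.10 (SE 0.083) and Foxa1 by -0.13 (SE 0.088), each with overlapping groups.

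Brainstem and hindbrain position genes were listed to look for tissue carried over with the cerebellum, though not all are restricted to such tissue. They had 0 of 16 called and a median of -0.032. Their summed linear level (2 to the power of each gene value, added) ran from 1159 to 1243 in Cic-L-null and from 1120 to 1338 in wild-type. Only 4 of the 16 lay above the dim limit, with Slc6a5 (mean 7.85) and Hoxa4 (mean 7.77) the brightest. The sum therefore cannot show how much such tissue was present. Hoxb3 differed by -0.31 (SE 0.091), the galanin gene Gal by -0.25 (SE 0.099) and Hoxb8 by 0.21 (SE 0.11), and none was called. Gal and Hoxb8 were dim. The list of sympathetic and adrenal chromaffin markers shares Th and Dbh. It had 0 of 7 called, which is no test of Th, with 3 above 0 and 4 below. Th was left aside because this contrast chose it, and the smallest p of the others was that of the neuropeptide gene Npy. Npy differed by -0.42 (SE 0.12, limma adjusted p = 0.266) without overlap.

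Purkinje cell markers were all above the dim limit, as the tissue label requires. Of 20 measured, 16 differed by more than 0, where 47% of all genes did, with a median of 0.062, and 0 were called. Their summed linear level ran from 43018 to 43827 in Cic-L-null and from 40178 to 44256 in wild-type, so the ranges overlapped. That sum weighs the brightest genes most, led by Aldoc (mean 12.8) and Itpr1 (mean 12.5), and cannot show how much Purkinje cell tissue was present. Lhx1, a transcription factor gene of Purkinje cells, had groups that did not overlap, at 8.84, 8.78, 8.89 and 8.74 in Cic-L-null replicates 1 to 4, against 8.62, 8.58, 8.47 and 8.63 in wild-type. It differed by 0.24 (SE 0.062, adjusted p = 0.213 with limma).

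The calcium channel gene Cacna1g differed by 0.19 (SE 0.061) and the nuclear receptor gene Rora by 0.16 (SE 0.054), also without overlap. Groups without overlap were thus found in 3 of the 20, against 3.02% of all genes. Lhx1, Cacna1g and Rora were named because their p values were the smallest of the list. The classic Purkinje markers were named in any case, so nothing is read from their smaller differences. Beside the list median of 0.062, Calb1, the calbindin gene, differed by -0.0023 (SE 0.062), Pcp2 by 0.12 (SE 0.11) and Aldoc by 0.098 (SE 0.061). Aldoc marks Purkinje cell stripes and astrocytes. The part of Purkinje cell content in the Th difference was not tested.

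Vessel and immune cell markers had 0 of 12 called and a median of -0.050. The tight junction gene Cldn5 differed by -0.27 (SE 0.070) and the vascular growth factor receptor gene Kdr by 0.39 (SE 0.13). The immune cell gene Ptprc, which was dim, differed by 0.15 (SE 0.074).

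**Figure D3:**
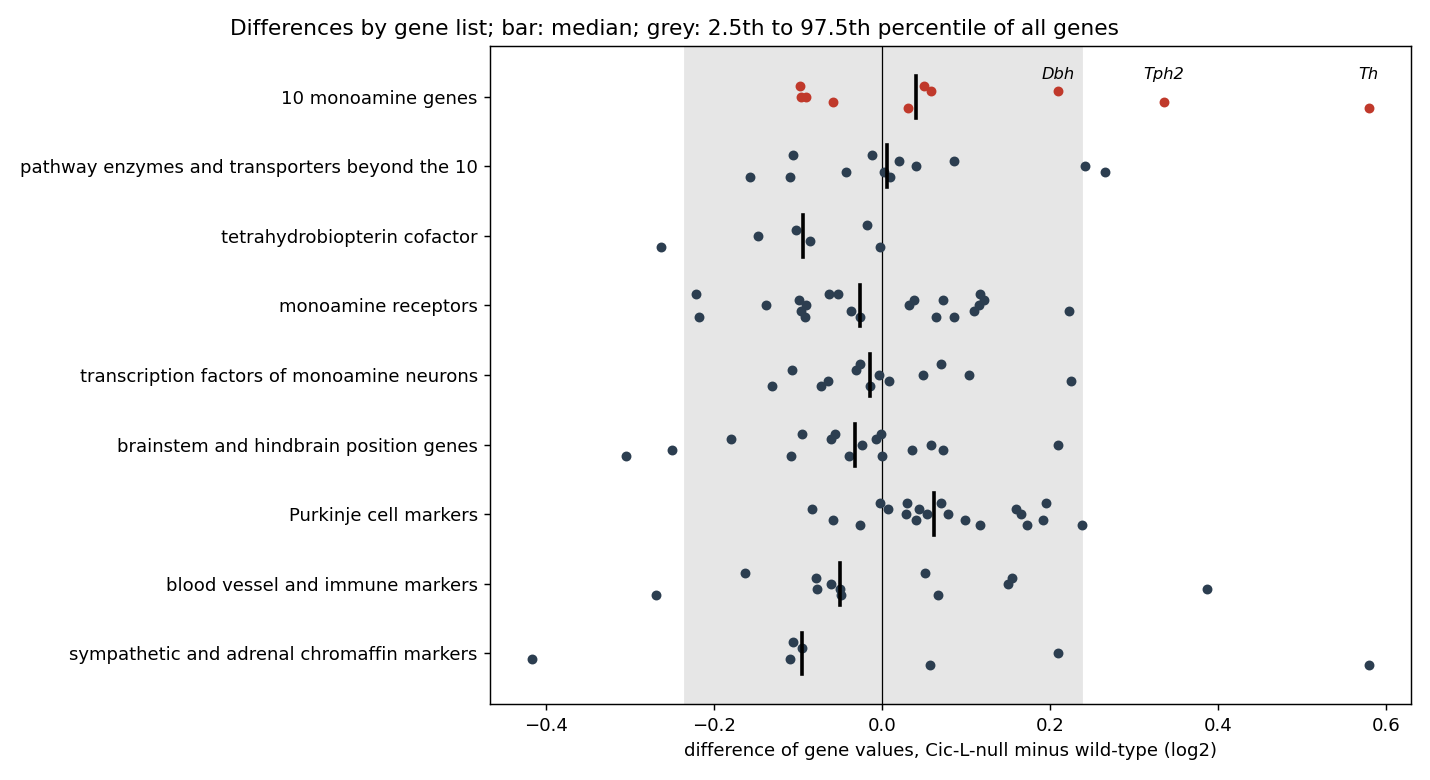
Differences of gene values, Cic-L-null minus wild-type, in log2 units on the horizontal axis, for the 10 monoamine genes in red and the genes of 8 lists in dark blue, 1 point per gene. Black bars are list medians and the grey band holds the 2.5th to 97.5th percentiles of all genes, -0.23 to 0.24. Th and Tph2, chosen for their difference, lie right of the band, Dbh inside it, and the other 7 monoamine genes cluster around 0.

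The spread of Th from animal to animal within a group is separate from the difference between the groups. Group means were subtracted, and Pearson's r to Th was taken over the 8 arrays as a description, with no p. Among the other monoamine genes r was highest for Tph2 at 0.63 and lowest for Maoa at -0.57. It was 0.21 for Ddc, -0.44 for Dbh, 0.34 for Gch1, 0.32 for Slc18a2, 0.32 for Slc6a2, 0.30 for Slc6a4 and 0.11 for Maob. With 1 array left out in turn, the r of Ddc ran from -0.016 to 0.66 and that of Tph2 from 0.40 to 0.72. It also crossed 0 for Slc18a2 (-0.17 to 0.69), Slc6a2 (-0.11 to 0.46), Slc6a4 (-0.34 to 0.61) and Maob (-0.27 to 0.35). The sign held for Tph2, Dbh, Gch1 and Maoa. The median of the probe sets gave Tph2 an r of 0.28 and turned the sign for Ddc (-0.50), Slc18a2 (-0.17) and Maob (-0.22).

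Among the 20 Purkinje markers the same measure was below 0 for 16, with a median of -0.30 and a range of -0.79 (Lhx1) to 0.36. Over the 14009 other genes above the dim limit it was below 0 for 59.0%, with a median of -0.13. It was -0.70 for Calb1, -0.29 for Pcp2 and 0.34 for Aldoc. From probe set medians these were -0.84, -0.036 and -0.023. With 1 array left out they ran from -0.86 to -0.21 for Calb1, -0.58 to 0.030 for Pcp2 and 0.080 to 0.73 for Aldoc. Of those 14009 genes, the most like Th were Pacsin1 at 0.98, 1700001K23Rik at 0.95, Nmnat3 at 0.95 and Ccdc3 at 0.95. With the median of the probe sets the same 4 values were 0.63, 0.74, 0.69 and 0.88. Since r was taken for 14009 genes over only 8 arrays, the 4 are given as names only.

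**Figure D4:**
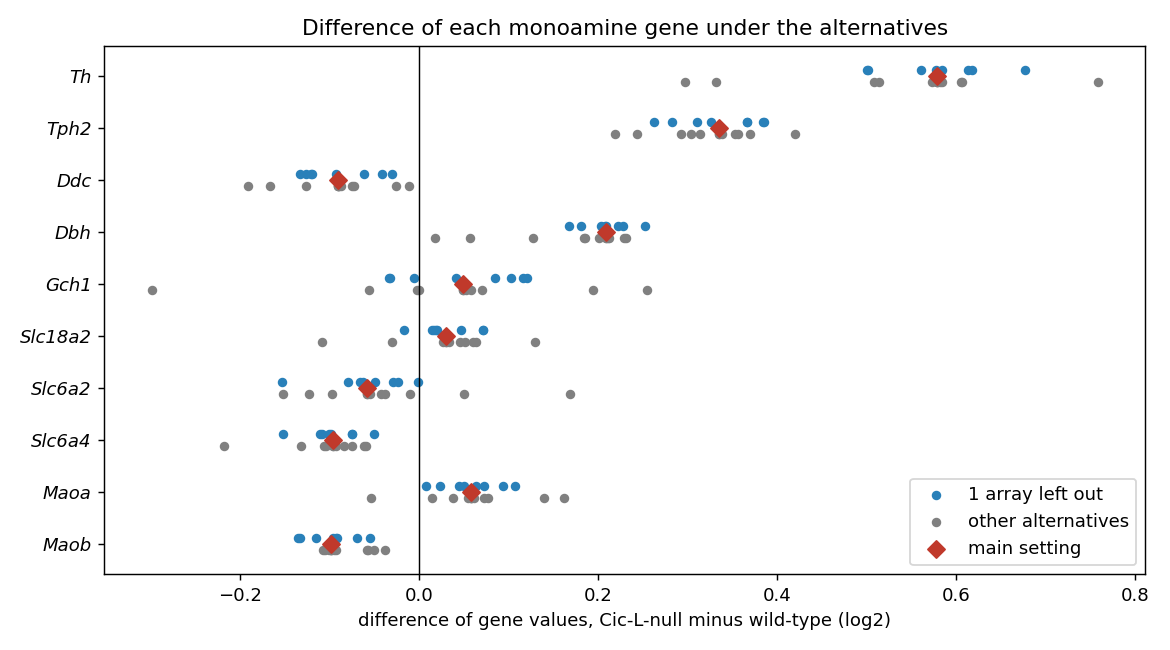
Difference of each monoamine gene, Cic-L-null minus wild-type, in log2 units on the horizontal axis. Red diamonds give the main setting, blue points each array left out in turn and grey points the other alternatives. Th ranges from 0.30 to 0.76 and Tph2 from 0.22 to 0.42, all above 0, whereas Gch1, Slc18a2, Slc6a2 and Maoa have points on both sides of 0.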

How the data were processed

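The deposited table holds log2 values for 241576 probe sets, which the authors made by RMA (Affymetrix Power Tools), as the submitters' processing notes say. No version, library file or build is named in the sources used here. Array medians ran from 7.82 to 7.88. With no read depth, the number of arrays limits the precision. Groups and replicate numbers came from the sample titles.

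Symbols were those of the array's old platform annotation, updated through RefSeq synonyms of GRCm38.p6, and 212097 probe sets carried 1 symbol. Those of the monoamine genes numbered 147, and none was shared with another symbol. Gene values were compared with limma 3.58.1 under R 4.3.3 (lmFit, then eBayes with no trend, group as the only term, no filter, Benjamini-Hochberg over all 20352 genes). Probe set errors came from the same model over all probe sets. The fit was tested on simulated data.

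The genes, lists and tests were chosen with earlier results of these data known. The text names the 10 genes, Cic, up to 3 members of each list with the smallest p, a few defining genes (Slc6a3, Tph1, Pnmt, Phox2a, Calb1, Pcp2, Aldoc) and the 4 genes most like Th. Some genes of that rule and of the lists are not reported here. Summed linear levels add 2 to the power of the log2 gene values. Alternatives covered the combination of probe sets, dim limits, normalisation, array weights, the variance model, a replicate block, a Y-linked covariate and each array left out.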

Additional observations from a re-analysis of the deposited data

Results flagged for a closer look

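Slc18a2 in wild-type replicate 3, at 5.88, stood apart from the other wild-type arrays, which lay between 5.71 and 5.72. Its gap to the nearest of them was 0.934 of the group's range, above Dixon's critical value of 0.829 for 4 samples. Of 22 groups examined (the 10 monoamine genes and Cic in both genotypes), this was the 1 that passed, and chance alone flags about 1 in 20.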

How the results depend on the processing

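The number of genes called over all genes, 28, was 2 when gene values were medians of the probe sets and 12 when only the brighter ones were averaged, and it was 69 among genes above the dim limit, 130 with a trended and robust variance, 54 with array weights and 18 with the Y-linked covariate. With 1 array left out it ranged from 0, when that was Cic-L-null replicate 2, to 37, when it was wild-type replicate 1. The number of monoamine genes called was 0, and 1 (Th) with the trended and robust variance, which is no test of Th because this contrast chose it. It stayed at 0 in the other alternatives fitted over all genes, each array left out included. The Th difference of 0.58 was 0.30 from probe set medians, with overlapping groups, and 0.33 in arrays without Y-linked signal. It ranged from 0.50 to 0.68 with 1 array left out. Th, Tph2, Ddc, Dbh, Slc6a4 and Maob kept their sign in all their alternatives.

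The sign turned for Gch1 (-0.0023 with the brighter probe sets, -0.055 with probe sets above the dim limit, -0.00051 with array weights, and -0.034 to 0.12 with 1 array left out). It turned for Slc18a2 (-0.11 with the median of the probe sets, -0.030 with the brighter probe sets, and -0.017 to 0.071 with 1 array left out) and for Slc6a2 (0.17 with the median of the probe sets). Within the arrays split by Y-linked signal, the sign also turned for Gch1 (-0.30 without the signal), Slc6a2 (0.050 with it) and Maoa (-0.053 with it). None of these 4 genes was called in any fit over all genes, and the cause was not tested. With the replicate numbers as a block, 0 genes were called. The numbers are not known to pair animals: deviations of same-numbered arrays correlated at 0.22, 0.00033, 0.21 and 0.026, and 4 of 8 arrays matched their own number best. Of the 10 genes, 6 were dim, which limits what their values can show.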
